A study of Homo sapiens with 6 samples.

Results

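The SWI/SNF chromatin remodelling subunits and 3 related ATPase genes were followed in RNA sequencing of cells labelled A549, a human lung adenocarcinoma line. The set holds 31 genes, taken from a fixed list of symbols among 78932 gene IDs: 28 SWI/SNF subunits, the ISWI ATPase genes SMARCA1 and SMARCA5, and the annealing helicase gene SMARCAL1. Each of the 31 symbols matched 1 ID. There were 3 libraries labelled as overexpressing HIF-1β (HIF1B in the labels, encoded by ARNT) and 3 libraries labelled wild type, numbered 1 to 3 in each group. The labels give transfection as the treatment of both groups, and nothing in them says whether the overexpressing cells were a pool or a clone, or whether a group's 3 libraries were made from separate cultures. The p-values therefore speak only for the spread among these 6 libraries, possibly a technical one.

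SWI/SNF complexes use ATP to slide or evict nucleosomes and so open enhancers and promoters. Their motor is either SMARCA4 (BRG1) or its paralog SMARCA2 (BRM), and 3 forms share a core: canonical BAF (cBAF), which carries ARID1A or ARID1B and a DPF protein; PBAF, which carries ARID2, PBRM1, BRD7 and PHF10; and non-canonical BAF (ncBAF), which carries BRD9 and BICRA or BICRAL. Subunit genes are often mutated in cancer, and A549 is known to carry an inactivating mutation of SMARCA4 and to lack the BRG1 protein. HIF-1β is the partner that the oxygen-regulated HIF-α subunits need in order to bind DNA.

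Library totals were 17192137 to 24454217 counts after rounding, and 16091 genes passed the filter on low counts. Levels are CPM, counts brought to a common library size by the TMM-scaled total of tested genes, given as mean ± SD with n = 3 libraries per group. ARNT was at 139 ± 8.30 CPM in the libraries labelled HIF-1β overexpression, against 43.7 ± 5.67 CPM in those labelled wild type, in the direction of the labels. The cell line label was less well met. Of 3 neighbouring genes on chromosome 9 known to be deleted in A549, CDKN2A and CDKN2B had 0 counts in every library, but MTAP was at 0.400 ± 0.234 CPM in overexpression libraries, against 78.1 ± 5.01 CPM in libraries labelled wild type. The summed level of 9 genes that A549 is known to express was 20947 to 22151 CPM in overexpression libraries, against 7067 to 7551 CPM in libraries labelled wild type, and 6 of the 9 were higher, 3 lower. ALDH1A1, the most abundant of the 9, was at 8835 ± 741 and 57.4 ± 14.6 CPM in the same order and weighs heavily in the sum. Also among the 9, the keratin gene KRT7 was at 1481 ± 94.6 CPM in overexpression libraries, against 9.45 ± 3.79 CPM in libraries labelled wild type. KRT19 was instead at 0.497 ± 0.132 and 207.5 ± 17.1 CPM in the same order. MTAP and KRT7 thus went against an A549 identity in all 3 libraries labelled wild type, and KRT19 went against it in all 3 overexpression libraries. Every difference below lies between the same 2 sets of libraries. The effect of HIF-1β and a difference in the cells cannot be told apart. In bulk libraries, fewer cells of a type and less RNA per cell cannot be told apart either.

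More members were lower than higher in the overexpression libraries, and most differences were small. Of 29 tested members, 16 were lower in the HIF-1β overexpression libraries (55.2%), 4 were higher (13.8%) and 9 did not pass (edgeR quasi-likelihood test, Benjamini-Hochberg adjusted p under 0.05 over all tested genes). Among all tested genes 35.7% were lower and 38.3% higher, so 74.0% were called, against 69.0% of the members. Differences of more than 2-fold were called for 3 members (SMARCA4, SMARCD3 and SMARCA1; 10.3%), against 37.6% of all tested genes. The median log2 fold change was -0.28 over tested members and 0.03 over all tested genes, and the median size without sign was 0.30 for members and 0.71 for all tested genes. The groups' CPM ranges were separate for 24 tested members (82.8%), against 77.3% of all tested genes. With library totals as the only scaling, which raised log2 fold changes by a median of 0.11, 8 members were higher and 11 lower, against 6817 and 4993 of all 16091 tested genes; the added higher calls were SMARCA2, SMARCAL1, ARID1B and SS18.

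**Figure D1:**
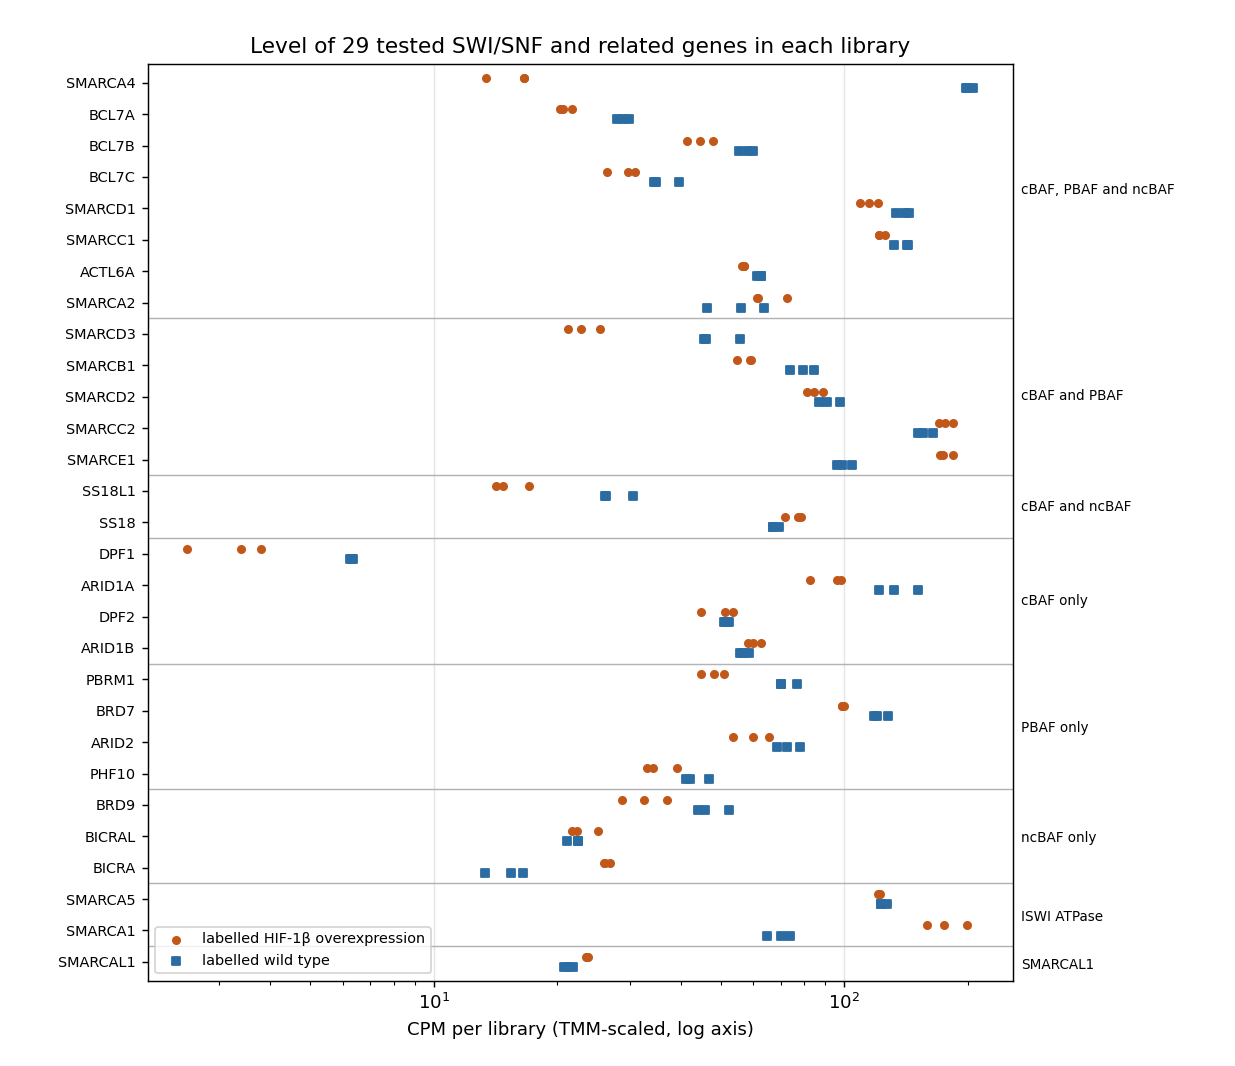
CPM of the 29 tested members in each library on a log axis, grouped by complex, with overexpression libraries as circles above those labelled wild type as squares; levels are to be compared within a gene only, since the genes differ in length. SMARCA4 stands apart, at 13.4 to 16.6 CPM in overexpression libraries, against 199 to 206 CPM in libraries labelled wild type.

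Of the 2 alternative motors, 1 was far lower and the other did not pass. SMARCA4, the BRG1 motor, had 16.6, 13.4 and 16.6 CPM in the overexpression libraries, from 387, 294 and 385 counts, against 206, 199 and 199 CPM in the libraries labelled wild type, from 3401, 3896 and 4739 counts. All 3 overexpression libraries lay far below all 3 labelled wild type. The mean was 12.9-fold lower (log2 fold change -3.69, SE 0.092, edgeR adjusted p = 1.2e-10), and 3.79% of tested genes fell at least as far. SMARCA4 (ENSG00000127616) lies on chromosome 19, 10960825 to 11079426, plus strand, in GRCh38, and its counts do not say whether the transcripts were mutated. MTAP was likewise lower in every overexpression library, and the part of the cells' identity in the SMARCA4 value was not tested.

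SMARCA2, the BRM motor (ENSG00000080503, chromosome 9, 1980290 to 2193624, plus strand), did not pass. It had 72.7, 61.8 and 61.2 CPM in the overexpression libraries, against 56.2, 46.2 and 63.9 CPM in libraries labelled wild type, so that the groups overlapped (log2 fold change 0.23, SE 0.12, edgeR adjusted p = 0.091). The call depended on the fit: with the replicate number as a block SMARCA2 passed as higher (adjusted p = 0.040), as it did with library totals (0.025), with no filter on low counts (0.039) and without wild-type replicate 3 (0.024). Over its alternatives the adjusted p was 0.024 to 0.36. Levels per length allow the pair to be compared. Per kb of exon, SMARCA4 was at 0.986 ± 0.116 and SMARCA2 at 3.51 ± 0.348 CPM in the overexpression libraries, whereas in those labelled wild type SMARCA4 was at 12.8 ± 0.274 and SMARCA2 at 2.98 ± 0.477. SMARCA4 therefore held 22.0 ± 2.0% of the pair in overexpression libraries, against 81.1 ± 2.51% in libraries labelled wild type. The sum of both motors was 80.8 ± 7.504 CPM in overexpression libraries, against 257 ± 9.79 CPM in libraries labelled wild type, 3.18-fold lower.

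The promoters of both motor genes are shown because the DNA-bound HIF dimers of HIF-1β recognise a short core, ACGTG or GCGTG, and because the genes differed so unequally. Each runs 5′ to 3′ on the strand of the gene from 250 bases before to 50 bases after its first listed start (RefSeq, GRCh38.p14), with matches to either core on either strand in capitals. SMARCA4 at chr19:10960780-10961079 held 4 matches and SMARCA2 at chr9:2015097-2015396 held 0.
SMARCA4: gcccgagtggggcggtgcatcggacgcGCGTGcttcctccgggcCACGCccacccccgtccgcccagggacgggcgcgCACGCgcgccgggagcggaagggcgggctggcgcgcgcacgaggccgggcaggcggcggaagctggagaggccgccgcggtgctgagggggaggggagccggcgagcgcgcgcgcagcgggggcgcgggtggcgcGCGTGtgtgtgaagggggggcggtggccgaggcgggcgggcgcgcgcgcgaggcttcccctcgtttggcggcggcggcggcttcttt
SMARCA2: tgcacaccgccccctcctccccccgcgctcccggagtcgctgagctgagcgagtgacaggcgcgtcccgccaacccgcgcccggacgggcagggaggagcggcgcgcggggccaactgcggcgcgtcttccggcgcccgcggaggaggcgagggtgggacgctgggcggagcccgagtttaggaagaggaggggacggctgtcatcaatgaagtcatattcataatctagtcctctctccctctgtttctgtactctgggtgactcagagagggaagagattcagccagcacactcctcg
Over all 27 members with a promoter in the table, 13 held a match (48.1%), as did 48.4% of the promoters of all 27305 genes there and 63.1% of those of tested genes. A match was present in 1 of 3 members called higher, 9 of 14 called lower and 3 of 8 that did not pass. A match is a string of letters and was not tested for binding. No entry was held for SMARCC1, SMARCC2, ACTL6A or ARID2.

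Of 8 tested genes common to the 3 forms, SMARCA4 and SMARCA2 included, 6 were lower and 0 higher, beside 35.7% and 38.3% of all tested genes. Apart from SMARCA4 the differences were small. The actin-like ACTL6A, the scaffolds SMARCC1 and SMARCD1 and the BCL7 proteins of the motor module belong here. The BCL7 genes were all lower: BCL7A was at 20.9 ± 0.734 CPM in overexpression libraries, against 29.002 ± 0.973 CPM in libraries labelled wild type, BCL7B at 44.6 ± 3.26 and 57.9 ± 2.27, and BCL7C at 29.1 ± 2.32 and 36.4 ± 2.91 in the same order. The shares of the family that each held per kb of exon overlapped between the groups, BCL7A holding 14.2 ± 0.808% in overexpression libraries, against 15.2 ± 0.463% in libraries labelled wild type. SMARCD1 was 1.21-fold lower, at 115 ± 5.59 CPM in overexpression libraries, against 139.6 ± 5.18 CPM in libraries labelled wild type. SMARCC1 was 1.13-fold lower (edgeR adjusted p = 0.026), a call lost without overexpression replicate 1 (0.081) or wild-type replicate 1 (0.078). With library totals SMARCC1 (0.37), SMARCD1 (0.054) and BCL7C (0.064) did not pass either. ACTL6A, at 56.7 ± 0.324 CPM in overexpression libraries, against 62.2 ± 0.815 CPM in libraries labelled wild type, did not pass. The groups did not overlap for ACTL6A, whose replicates lay close together.

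Its neuronal paralog ACTL6B, which replaces ACTL6A in neurons, had 0 counts in all 6 libraries. A count of 0 allows a level of up to 0.0439 CPM with overexpression, against 0.0501 CPM with the wild-type label, each from 3 counts over the group and covering counting error only. DPF3, a DPF paralog of heart and muscle, had 2, 0 and 2 counts in overexpression libraries, against 1, 0 and 1 in libraries labelled wild type. Both were too low to test. Muscle markers were also near 0: 7 of 8 were under 1 CPM in every library, the exception being NKX2-5 at 2.21 ± 0.444 CPM in the overexpression libraries with 0 counts in those labelled wild type, and the list summed to 2.01 to 2.80 and 0.0512 to 0.168 CPM. Neuronal markers were not absent, summing to 247 to 280 CPM in overexpression libraries, against 281 to 315 CPM in libraries labelled wild type; STMN2, ELAVL4 and DCX had 0 counts in all 6 libraries. Of 10 neuronal markers 3 were higher, 3 lower and 4 too low to test, so the close sums hide opposite differences. Higher were TUBB3 (160 CPM in overexpression libraries, against 27.2 CPM in libraries labelled wild type), RBFOX3 (43.5 and 0.154) and SNAP25 (31.6 and 19.5). Lower in the same order were MAP2 (8.07 and 138 CPM), NEFL (19.6 and 80.8) and SYT1 (6.28 and 32.6).

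Subunits shared by cBAF and PBAF split, with 2 of 5 higher and 2 lower, beside 38.3% and 35.7% of all tested genes. SMARCE1, a DNA-binding HMG-box subunit, had 171, 174 and 184 CPM in the overexpression libraries, against 98.8, 96.2 and 105 CPM in those labelled wild type. Every overexpression library lay above every library labelled wild type, and the mean was 1.77-fold higher (log2 fold change 0.82, SE 0.066, edgeR adjusted p = 9.8e-07). SMARCB1, the subunit that grips the nucleosome face and is lost in rhabdoid tumours, was instead 1.37-fold lower, at 57.7 ± 2.54 CPM in overexpression libraries, against 79.2 ± 5.37 CPM in libraries labelled wild type (edgeR adjusted p = 2.3e-04). The 2 subunits sit in the same assemblies, and no library broke either order. All 7 named SMARCE1 pseudogenes were at or near 0 CPM. SMARCE1 and BRD9 each overlap another protein-coding gene on the same strand. Both of these overlapping genes were at a higher level with overexpression, whereas BRD9 itself was lower. For SMARCE1, ENSG00000264058 was at 2.21 CPM in overexpression libraries, against 0.0589 CPM in libraries labelled wild type. For BRD9, ZDHHC11 was at 8.57 CPM, against 2.95 CPM. Their part in the SMARCE1 and BRD9 values was not tested.

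The scaffold paralogs moved apart. SMARCC2 was 1.13-fold higher at 177 ± 6.71 CPM in overexpression libraries, against 157 ± 6.70 CPM in libraries labelled wild type (edgeR adjusted p = 0.033), while SMARCC1 was lower. The SMARCC2 call was lost when overexpression replicate 1 (0.072) or 2 (0.082), or wild-type replicate 1 (0.19) or 3 (0.12), was left out, and with no filter on low counts (0.12). SMARCC2 overlaps MYL6 on the opposite strand, and MYL6 was at 350 CPM in overexpression libraries, against 226 CPM in libraries labelled wild type; its part in the SMARCC2 value was not tested. The summed level of the pair per kb of exon was 36.8 ± 0.527 CPM in overexpression libraries, against 36.5 ± 1.16 CPM in libraries labelled wild type, and SMARCC1 held 43.8 ± 1.40% and 49.8 ± 1.37% of it.

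SMARCD3, the SMARCD paralog used in heart and muscle, had 22.9, 25.4 and 21.3 CPM in the overexpression libraries, against 45.5, 55.6 and 46.0 CPM in those labelled wild type. The groups lay well apart, with a mean 2.11-fold lower (log2 fold change -1.08, SE 0.11, edgeR adjusted p = 4.5e-06). SMARCD2, the myeloid member, did not pass, at 84.7 ± 3.68 CPM in overexpression libraries, against 91.6 ± 5.41 CPM in libraries labelled wild type. Per kb of exon SMARCD3 held 9.01 ± 0.898% of its family in overexpression libraries, against 15.4 ± 2.08% in libraries labelled wild type. SMARCD1 and SMARCD2 carried most of the family in both groups.

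Among genes of cBAF, or of cBAF and ncBAF, that PBAF lacks, 6 were tested. Of these, 3 were lower and 0 higher, beside 35.7% and 38.3% of all tested genes. The 3 lower genes were a single member each of the ARID1, DPF and SS18 families. ARID1A, the large subunit most often mutated in cancer, had 82.3, 96.2 and 98.0 CPM in the overexpression libraries, against 121, 132 and 151 CPM in those labelled wild type, 1.46-fold lower (log2 fold change -0.55, SE 0.096, edgeR adjusted p = 3.5e-04). The lowest library labelled wild type lay above the highest overexpression library. ARID1B, its alternative in the complex, was at 60.3 ± 2.21 CPM in overexpression libraries, against 56.9 ± 1.45 CPM in libraries labelled wild type and did not pass. Per kb of exon ARID1A held 81.0 ± 1.10% of the pair in overexpression libraries, against 86.9 ± 1.20% in libraries labelled wild type. With coding length in its place the shares were 63.6 ± 1.65% and 73.0 ± 2.09%, since the annotated exons of ARID1B are far longer than its coding part.

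DPF1, a histone-reading subunit of neuronal BAF, had 3.39, 2.51 and 3.80 CPM in the overexpression libraries, against 6.25, 6.34 and 6.37 CPM in those labelled wild type. It was 1.95-fold lower (edgeR adjusted p = 0.0015) without overlap. DPF2, its ubiquitous paralog, was at 49.9 ± 4.65 CPM in overexpression libraries, against 51.7 ± 0.757 CPM in libraries labelled wild type and did not pass. DPF2 held 90.5 ± 1.24% of the family in overexpression libraries, against 83.5 ± 0.150% in libraries labelled wild type. The SS18 pair, which cBAF shares with ncBAF, showed the same shape. SS18L1 (CREST), used in neurons, had 17.05, 14.2 and 14.8 CPM in the overexpression libraries, against 26.2, 30.6 and 26.3 CPM in those labelled wild type, 1.81-fold lower (edgeR adjusted p = 3.5e-05). SS18, the partner fused to SSX in synovial sarcoma, was at 75.8 ± 3.61 CPM in overexpression libraries, against 67.8 ± 1.22 CPM in libraries labelled wild type; its groups did not overlap, yet the test narrowly failed (adjusted p = 0.050). It passed as higher with the replicate block (0.041), and over its alternatives the adjusted p was 0.0044 to 0.19. SS18 held 80.4 ± 2.29% of the pair in overexpression libraries, against 67.0 ± 2.202% in libraries labelled wild type.

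**Figure D2:**
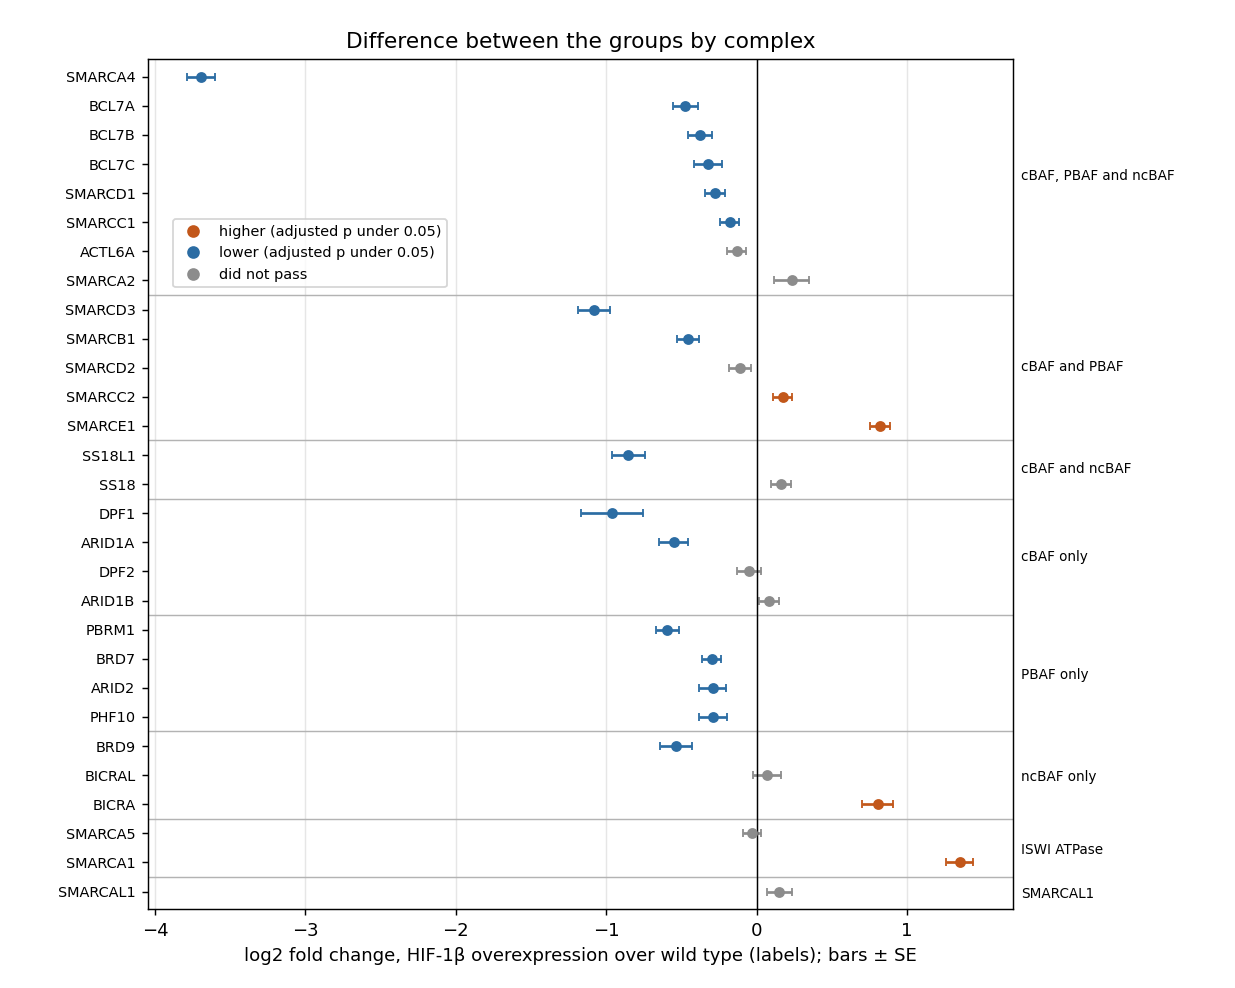
Log2 fold change of each tested member, HIF-1β overexpression over wild type by the labels, with bars of ± SE, grouped by complex; colour marks the call at an adjusted p of 0.05. All 4 PBAF-only genes lie below 0, whereas the ncBAF-only genes lie on both sides. Of all tested genes, 35.7% were called lower and 38.3% higher.

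PBAF-only subunits were all lower (4 of 4), against 55.2% of tested members and 35.7% of all tested genes. The amounts were modest, with a median log2 fold change of -0.30. PBRM1, which reads acetylated histones through its bromodomains and is lost in many kidney cancers, had 44.9, 51.0 and 48.1 CPM in the overexpression libraries, against 70.1, 76.7 and 70.2 CPM in those labelled wild type. It was 1.51-fold lower without overlap (log2 fold change -0.59, SE 0.077, edgeR adjusted p = 3.9e-05). BRD7, a bromodomain subunit, was 1.23-fold lower at 99.3 ± 0.574 CPM in overexpression libraries, against 122 ± 4.83 CPM in libraries labelled wild type. ARID2, the ARID subunit of PBAF, was at 59.7 ± 6.06 and 73.1 ± 4.57 CPM in the same order, and PHF10, a PHD-finger subunit, at 35.4 ± 3.21 and 43.4 ± 3.12 CPM. The calls of ARID2 and PHF10 were lost with library totals (adjusted p = 0.083 and 0.10). The ARID2 call was also lost without overexpression replicate 1 (0.054), and that of PHF10 without overexpression replicate 3 (0.060) or wild-type replicate 1 (0.051). PBRM1 and PHF10 overlap the genes GNL3 and C6orf120 on the opposite strand, at 107 and 35.8 CPM in overexpression libraries, against 152 and 44.9 CPM in libraries labelled wild type; their part in these values was not tested. In all, 8 members overlap a tested protein-coding gene on the opposite strand.

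PBRM1 is shown for its promoter because it held 7 matches to the HIF core, more than any other of the 27 members with an entry, and the gene was lower in the overexpression libraries. The stretch is chr3:52685864-52686163 (RefSeq, GRCh38.p14), minus strand, 5′ to 3′ on the strand of the gene, with matches in capitals; 2 of the 7 overlap as the strands of 1 palindrome.
PBRM1: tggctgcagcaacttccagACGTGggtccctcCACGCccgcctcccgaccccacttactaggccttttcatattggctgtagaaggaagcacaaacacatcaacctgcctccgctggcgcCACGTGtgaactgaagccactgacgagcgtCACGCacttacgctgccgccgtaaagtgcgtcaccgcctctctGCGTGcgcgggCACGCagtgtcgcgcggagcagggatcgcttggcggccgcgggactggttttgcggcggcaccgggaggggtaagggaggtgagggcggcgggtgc

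The ncBAF-only genes went both ways, with 1 of 3 higher and 1 lower, beside 38.3% and 35.7% of all tested genes. BICRA (GLTSCR1), the scaffold that defines ncBAF, had 26.9, 26.1 and 26.1 CPM in the overexpression libraries, against 15.4, 16.5 and 13.4 CPM in those labelled wild type. The groups did not overlap, and BICRA was 1.74-fold higher (log2 fold change 0.81, SE 0.10, edgeR adjusted p = 3.4e-05). BICRAL, its paralog, was at 23.1 ± 1.82 CPM in overexpression libraries, against 22.0 ± 0.738 CPM in libraries labelled wild type and did not pass, so BICRA held 51.0 ± 2.25% of the pair per kb of exon in overexpression libraries, against 38.4 ± 1.83% in libraries labelled wild type. BRD9, the bromodomain subunit of ncBAF, was instead 1.45-fold lower at 32.8 ± 4.15 CPM in overexpression libraries, against 47.4 ± 4.31 CPM in libraries labelled wild type. BRD9 and its PBAF counterpart BRD7 were both lower, and the share BRD7 held of the 2 overlapped between the groups, at 77.4 ± 2.29% in overexpression libraries, against 74.4 ± 2.201% in libraries labelled wild type.

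**Figure D3:**
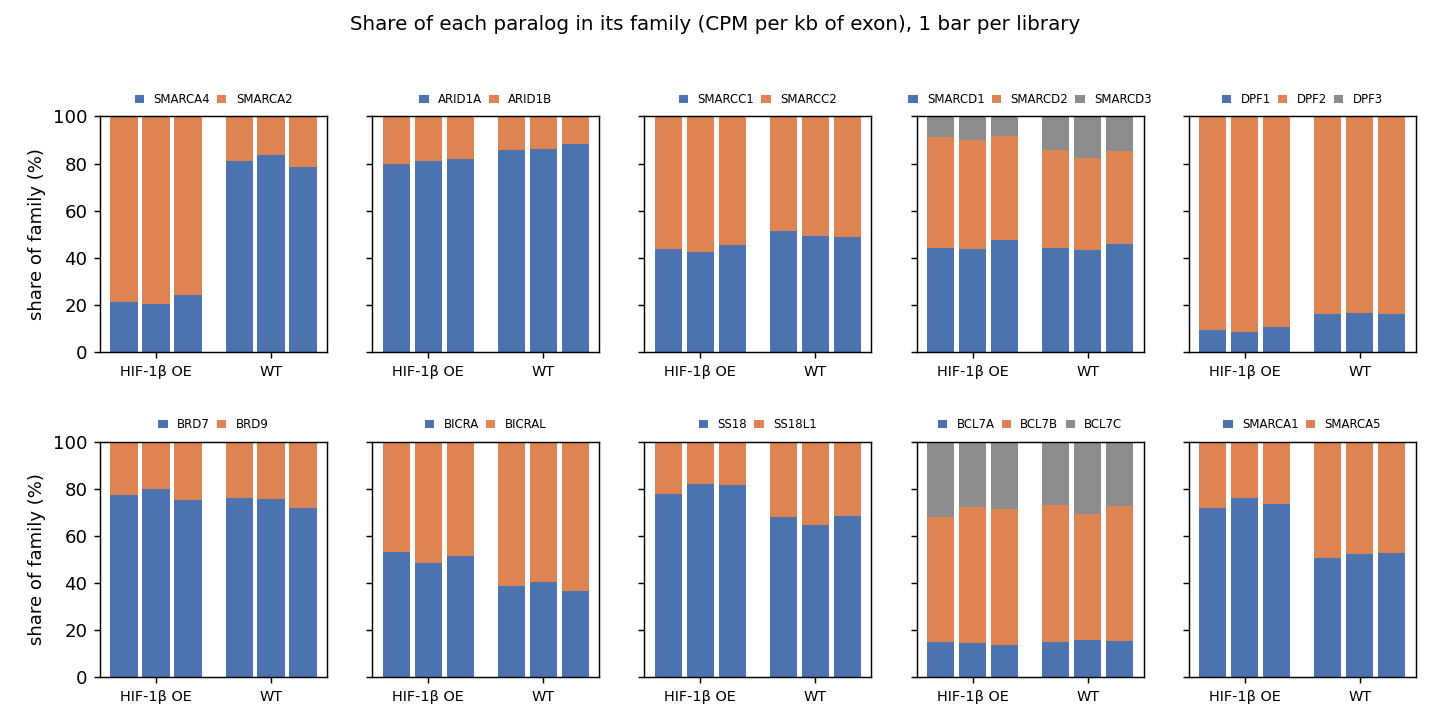
Share of each paralog in the summed CPM per kb of exon of its family, 1 bar per library, for 10 families, with the 3 HIF-1β overexpression libraries left of the 3 labelled wild type. SMARCA4 holds 22.0% of its pair on average in overexpression libraries, against 81.1% in libraries labelled wild type, and the BCL7 and BRD7 with BRD9 families overlap between the groups.

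Across the 10 paralog families the groups did not overlap in the share of 1 paralog per family for 7 (SMARCA4, ARID1A, SMARCC1, DPF2, BICRA, SS18 and SMARCA1), and overlapped for SMARCD1, BRD7 and BCL7A. The paralog that stands for its family was picked with earlier results of these data known, and in the SMARCD family the choice decides the count: the shares of SMARCD3, above, and of SMARCD2, at 45.8 ± 1.51% in overexpression libraries, against 40.1 ± 1.62% in libraries labelled wild type, were separate. For each of the 7 the exact two-sided permutation test over the 6 libraries gave p = 0.10, the smallest that 3 against 3 can give, and 0.14 after Benjamini-Hochberg adjustment over the 10 families. Groups of 3 that do not overlap always give this p, so it only restates the lack of overlap. The widest gap was that of SMARCA4, 59.2 percentage points lower by the values above. Next came SMARCA1 in the ISWI pair, whose share was 73.6 ± 2.09% in overexpression libraries, against 51.8 ± 1.27% in libraries labelled wild type.

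ISWI motors space nucleosomes in regular arrays and belong to other complexes than SWI/SNF. SMARCA1 (SNF2L; ENSG00000102038, chromosome X, 129446501 to 129523500, minus strand) had 159.5, 199 and 175 CPM in the overexpression libraries, against 64.9, 70.1 and 73.8 CPM in those labelled wild type. It showed the largest rise of the tested members, 2.55-fold (log2 fold change 1.35, SE 0.091, edgeR adjusted p = 2.3e-07), and 19.0% of all tested genes rose at least as far. SMARCA5 (SNF2H), the more widely used ISWI motor, was at 122 ± 0.493 CPM in overexpression libraries, against 124 ± 2.37 CPM in libraries labelled wild type and did not pass (log2 fold change -0.03, SE 0.060). SMARCAL1, which rewinds DNA at stalled forks, was at 23.7 ± 0.160 and 21.3 ± 0.491 CPM in the same order, did not overlap and did not pass (edgeR adjusted p = 0.12), although it passed as higher with library totals (0.015). SMARCA1 is shown because it rose most; its promoter, chrX:129523441-129523740 (RefSeq, GRCh38.p14), minus strand, 5′ to 3′ on the strand of the gene, held 0 matches to the HIF core and so has no capitals.
SMARCA1: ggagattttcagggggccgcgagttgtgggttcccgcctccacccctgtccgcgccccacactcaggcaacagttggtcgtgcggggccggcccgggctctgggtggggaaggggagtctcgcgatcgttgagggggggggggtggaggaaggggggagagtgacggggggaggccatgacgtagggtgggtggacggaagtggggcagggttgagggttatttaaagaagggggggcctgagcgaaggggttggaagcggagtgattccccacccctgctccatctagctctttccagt

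In order of level per kb of exon, SMARCA4 was number 28 of the 31 members in overexpression libraries, against number 10 in libraries labelled wild type. SMARCA1 was number 1 and number 7, and with coding length in place of exons number 4 and number 19. The exon length counts every annotated exon of a gene, and the order depends on it. With coding length SMARCA4 was number 28 and number 14, and SMARCD2 number 6 in both groups. SMARCE1 was number 1 and number 4 with coding length, and number 11 and number 20 per kb of exon. SMARCD1 and SMARCD2 were among the first 3 in both groups per kb of exon, at 22.4 and 22.7 CPM per kb in overexpression libraries, against 27.2 and 24.5 CPM per kb in libraries labelled wild type. The CPM of all 31 members summed to 1933 ± 26.8 in overexpression libraries, against 2153 ± 19.997 in libraries labelled wild type. Without SMARCA4 the sums were 1918 ± 27.8 and 1952 ± 24.2 in the same order and overlapped between the groups.

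Position along the chromosome was compared through the 5 nearest tested protein-coding genes on each side. All neighbour counts stand beside 38.3% higher and 35.7% lower among all tested genes. Around SMARCA4, all within 314 kb, 3 of 10 were higher and 3 lower, while 4 did not pass. The lowest was YIPF2, at 14.7 ± 3.01 CPM in overexpression libraries, against 24.9 ± 0.805 CPM in libraries labelled wild type (log2 fold change -0.76). The highest was DNM2, at 281 ± 21.7 CPM in overexpression libraries, against 129 ± 2.70 CPM in libraries labelled wild type (1.12). CARM1 (-0.27) and TIMM29 (-0.41) were also lower. None of the 10 fell as far as SMARCA4. The neighbours of SMARCA1 lie up to 8857 kb away; BCORL1 (1.66) and GLUD2 (4.09) were higher, XIAP (-0.47), STAG2 (-0.85), OCRL (-0.70), APLN (-6.43) and ZDHHC9 (-0.50) lower, and C1GALT1C1, THOC2 and UTP14A did not pass. SMARCE1 and BICRA were singled out after their values were seen: all 10 neighbours of each were higher, with log2 fold changes of 0.53 to 8.85 around SMARCE1 and 0.27 to 7.39 around BICRA. Around SS18L1, also singled out so and itself lower, 9 of 10 neighbours were lower. SMARCD3, PBRM1 and BCL7B, themselves lower, had 7, 6 and 6 of 10 neighbours lower, against 0, 0 and 2 higher. Some other members went against their neighbours or did not pass beside them. Of 10 neighbours each, 8 of BCL7C and 7 of BRD9 were higher although both members were lower. For DPF1, itself lower, 6 of 10 neighbours were higher. For SMARCA5, which did not pass, 8 of 10 neighbours were lower.

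**Figure D4:**
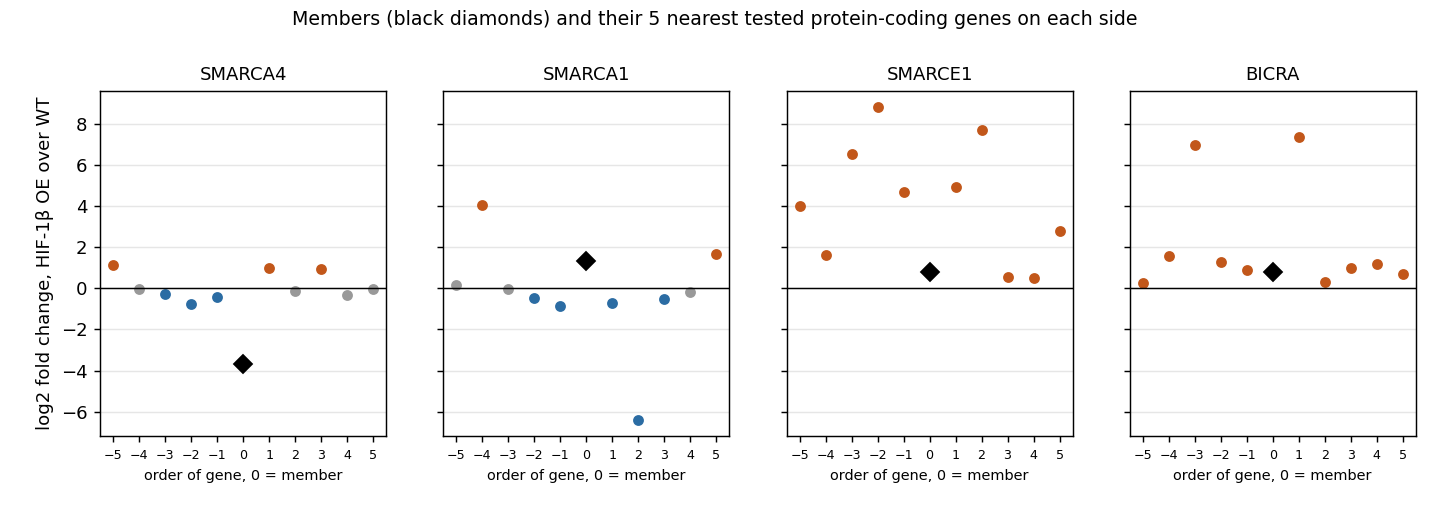
Log2 fold change of 4 members (black diamonds) and of the 5 nearest tested protein-coding genes on each side in chromosome order; orange marks genes called higher, blue genes called lower and grey genes that did not pass, at an adjusted p of 0.05. SMARCA4 at -3.69 lies below all of its neighbours, whereas all neighbours of SMARCE1 and BICRA lie above 0.

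Other remodelling complexes were compared by lists of their subunits. The counts of every list stand beside 38.3% higher and 35.7% lower among all tested genes. Among partners of the ISWI motors, 5 of 12 were higher and 5 lower, while 2 did not pass, with a median log2 fold change of -0.02. The histone-fold subunit gene CHRAC1 was higher at 50.3 ± 0.955 CPM in overexpression libraries, against 28.6 ± 0.928 CPM in libraries labelled wild type, and its partner POLE3 lower at 97.4 ± 14.5 and 193 ± 11.6 CPM. RBBP4, a histone chaperone of several complexes, was 1.55-fold higher, and CECR2, a bromodomain partner of SMARCA1, 3.17-fold lower at 0.934 ± 0.238 and 2.96 ± 0.254 CPM. Of 20 CHD and NuRD genes 6 were higher and 11 lower, while 3 did not pass (median -0.23). The deacetylase gene HDAC1 was 2.10-fold higher at 113 ± 8.26 CPM in overexpression libraries, against 53.7 ± 2.77 CPM in libraries labelled wild type, and CHD5 2.30-fold higher at 2.44 ± 0.730 and 1.06 ± 0.360 CPM. The NuRD scaffold gene MTA1 was 1.70-fold lower and CHD1L, a PARP-activated remodeller, 1.74-fold lower.

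Of 14 INO80 genes 4 were higher and 7 lower, while 3 did not pass (median -0.12). The motor gene INO80 was 2.60-fold lower, at 49.6 ± 3.29 CPM in overexpression libraries, against 129 ± 7.12 CPM in libraries labelled wild type, and UCHL5, a deubiquitinase of the complex, 2.89-fold lower. INO80C and ACTR5 were 1.81-fold and 1.46-fold higher. In the SRCAP and EP400 complexes, which exchange histone H2A.Z and acetylate histones, 3 of 17 were higher and 7 lower, while 7 did not pass (median -0.14). SRCAP itself was 1.49-fold higher and MBTD1 1.66-fold higher, while ING3 and EPC2 were 3.78-fold and 2.77-fold lower. Among 13 other SNF2-family helicases 4 were higher and 5 lower, while 4 did not pass (median -0.02): the repair genes ERCC6 and RAD54B were 2.00-fold lower and 1.89-fold higher, ERCC6L, a translocase of mitotic DNA bridges, 1.92-fold higher, and BTAF1, which removes TATA-binding protein from DNA, 2.15-fold lower. No motor gene named here fell as far as SMARCA4. The median of the SWI/SNF and related members, -0.28, and those of all 5 lists stand beside 0.03 for all tested genes.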

How the data were processed

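RNA of 6 libraries was compared, 3 labelled HIF-1β overexpression and 3 labelled wild type. The authors deposited estimated counts per gene, credited to salmon by the name of the table; the submitters' processing notes name bcl2fastq 2.20 and GRCh38. Salmon's version, its annotation and its strand setting were not stated in the sources used here. The labels name both polyA RNA and a stranded total RNA kit with ribosomal depletion. The table holds 6 further per-sample columns, not used here since their names fit none of its samples. The deposited expected counts were rounded before testing; up to 9.51% of a library's values differed from the nearest integer by more than 1e-06.

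Symbols matched 61481 of 78932 IDs (77.9%). Positions, exon and coding lengths came from GENCODE release 29 (GRCh38), and promoter sequences from RefSeq (GRCh38.p14), 13 members having more than 1 start, of which the one listed before the others was used. Genes were kept by filterByExpr at a smallest count of 10. CPM were scaled by each library's TMM-scaled total of tested genes. The test was edgeR 4.0.16's quasi-likelihood test (R 4.3.3) with p-values adjusted by Benjamini-Hochberg across every tested gene and called under 0.05; SE is the size of the log2 fold change over the square root of F, and folds are ratios of mean CPM. The steps were checked on simulated counts in which only a small part of the genes differed. That check cannot speak for the scaling when most genes differ, as here. Alternatives were DESeq2 1.42.0, other scalings and filters, a replicate block and leaving out each library.

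The batch label gives the replicate numbers, so same-numbered libraries may be paired. The main test did not use this pairing, and the replicate block did. Deviations from the group means had correlations of 0.0013 to 0.096 for same-numbered pairs and -0.070 to 0.047 for the others. These ranges overlap and do not settle whether the libraries were paired. No library repeated another (chi-square per degree of freedom 6.03 to 15.8 within groups). All members are described; of the other lists the 2 called genes at each end with a mean of at least 1 CPM are named. Neighbours of SMARCA4 are named only in part, and 1 item is not reported here. Members, lists and rules were chosen with earlier results of these data known. Running the alternatives for the named genes outside the members and for the other lists was added after seeing the data.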

Additional observations from a re-analysis of the deposited data

How the results depend on the processing

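Of 20 called members, 14 kept their call and direction under all 12 alternatives, SMARCA4 among them at log2 fold changes of -3.74 to -3.58; no called result reversed. Over the alternatives the number of genes called was lowest at 1 CPM in 3 libraries (10986 of 14506 tested). It was highest with no filter on low counts (13591 of 30282 tested). The median log2 fold change of tested members was -0.26 with DESeq2 size factors, -0.17 with library totals, -0.30 with no filter on low counts, -0.26 at 1 CPM in 3 libraries, -0.26 with the DESeq2 Wald test, and -0.27 to -0.22 when single libraries were left out. With library totals 8 members were called higher, against 4 in the main fit, beside 42.4% and 38.3% of all tested genes. A left-out library gave 3 to 4 higher and 14 to 16 lower. Beside these stood 35.7 to 37.1% higher and 33.2 to 34.7% lower among all genes tested in those fits. With the replicate block 6 members were higher and 16 lower, beside 38.1% and 36.2% of all tested genes. SMARCA2 and SS18 were added, and no other call of a member changed. The share of ARID1A differed by -9.38 points with coding length and -9.83 with no length scaling, and that of DPF2 by 4.54 and 4.81. Outside the members, the call of CARM1 was lost with library totals (edgeR adjusted p = 0.093). That of TIMM29 was lost there (0.11) and without overexpression replicate 1 or 2 or wild-type replicate 1 or 3 (0.056 to 0.086). With library totals 5 SRCAP and EP400 genes were higher, against 3 in the main fit, beside 42.4% and 38.3% of all tested genes. DPF1, at 55 to 152 counts a library, is the least deeply counted of the tested members.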

Other observations

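Genes of the Polycomb repressive complex PRC2, which SWI/SNF is known to oppose on chromatin, were called about as often as other genes: of 10 tested, 5 were higher, 3 lower and 2 did not pass, so that 80.0% were called, against 74.0% of all tested genes, with a median log2 fold change of 0.28 against 0.03 for all tested genes. EZH2, the methyltransferase of the complex, was 2.11-fold lower at 54.0 ± 5.82 CPM in the libraries labelled HIF-1β overexpression and 114 ± 7.55 CPM in those labelled wild type (SD, n = 3 each). SUZ12, a core subunit, was 1.72-fold higher at 111 ± 8.19 and 64.5 ± 2.63 CPM in the same order. JARID2, an accessory subunit, was 1.86-fold higher and PHF19, another accessory subunit, 1.41-fold lower. These differences lay between the same libraries as those of SMARCA4 and MTAP.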
